A study of Homo sapiens with 42 samples.

Results

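Knockdown of MALT1 with hairpin 1 in TMD8 cells was examined in 6 of the 42 libraries of the series, 3 infected with a lentivirus that carries MALT1 hairpin 1 and 3 infected with a lentivirus that carries a non-targeting hairpin. The libraries were chosen by their titles. TMD8 is an established human line of diffuse large B-cell lymphoma of the activated B cell-like type, and all 6 libraries came from cells infected with a lentivirus, the controls included. A short hairpin RNA is cut by the cell into a small RNA that lowers its target's messenger RNA. The same line was also infected with MALT1 hairpin 2 (3 libraries), and another line of this lymphoma type, OCI-Ly3, received all 3 hairpins. In a separate experiment TMD8 cells received 100 nM of compound 3, which binds MALT1 covalently and inhibits it, or DMSO alone, and were collected after 8 h or 24 h (3 libraries a group). The sources used here give neither the hairpin sequences nor the time after infection nor any selection of infected cells. Nothing in them says whether replicates came from separate cultures, so p-values measure the spread between these libraries, which may be technical.

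MALT1 is a protease and scaffold that takes part in passing signals from the B-cell receptor to the transcription factor NF-kB. It also cleaves proteins that restrain this pathway or shorten the life of messenger RNAs. Lymphomas of the activated B cell-like type often depend on this signal, which in TMD8 starts at a chronically active B-cell receptor.

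Each library is given as 23250 numbered rows, which the submitters call RefSeq gene models, with a value in CPM (reads of the row divided by all reads of the library, on a scale common to all libraries). The files do not pair the numbers with gene names. The rows of MALT1, of NF-kB targets and of B-cell markers could therefore not be read, which leaves the depth of the knockdown and the identity of the cells unchecked, and at most 2 row numbers that rose and 2 that fell are named. The 6 libraries held 21.9 to 24.2 M reads, of which 16.4 to 18.5 M lay in the rows, so that 1 CPM stood for 21.9 to 24.2 reads. A row was tested if it reached 1 CPM in at least 3 of the 6 libraries, which 11293 rows did. Of these, 10903 were at 1 CPM or more in all 6.

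Replicates lay close together, and the hairpin 1 and non-targeting libraries lay apart. On log2(CPM + 1) values the first principal component of the 6 libraries held 63.8% of the variance, with hairpin 1 libraries at 9.19, 13.7 and 12.3 and non-targeting libraries at -14.7, -11.7 and -8.73. The median SD of a row over replicates was 0.062 log2 units with hairpin 1 and 0.078 with the non-targeting hairpin. In none of the 6 libraries did any row stand over 1 log2 unit away from its fellow replicates' mean. Pairs of replicates differed by more than sampling noise, with a chi-square per degree of freedom of 1.71 to 2.57 with hairpin 1 and 2.49 to 5.99 for the controls (1 is sampling noise alone), and all 6 were counted as separate samples.

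The hairpin 1 libraries placed more of their reads in the rows. The share was 76.6%, 78.0% and 77.8% with hairpin 1 and 74.99%, 74.5% and 75.1% with the non-targeting hairpin. The groups did not overlap, with a difference of 2.63 percentage points, and the two-sided exact permutation test gave p = 0.1, the smallest that 3 against 3 allows. Since CPM is relative to all reads of the library, a difference in this share enters every row. It differs between the groups in the direction of most calls given below. Scaled to the reads in the rows, row 735 had a log2 fold change of 1.20 (1.22 as deposited) and row 11477 of 1.01 (1.04). Row 756 had -2.03 (-1.95 as deposited) and row 5018 -1.29 (-1.20). Dividing by the reads in the rows also raises every value against the added 1 CPM, so these shifts mix both changes. The part of the share in single rows was not tested beyond this rescaling.

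Many rows changed with hairpin 1 in TMD8, nearly all of them by little. Of the 11293 rows, 2091 were called (18.5%): 1214 rose (10.8%) and 877 fell (7.77%), at a two-sided limma p below 0.05 after Benjamini-Hochberg adjustment. The median log2 fold change was 0.29 for the rows that rose and -0.38 for those that fell, against 0.03 over all rows tested. Among the rows that rose, 720 rose less than 1.25-fold, 424 by 1.25 to 1.5-fold, 68 by 1.5 to 2-fold and 2 by at least 2-fold. Among the rows that fell, 346 fell less than 1.25-fold, 395 by 1.25 to 1.5-fold, 120 by 1.5 to 2-fold and 16 by at least 2-fold. The counts past 2-fold depend on the added 1 CPM: edgeR had 9 raised and 59 lowered, DESeq2 8 and 59, and a pseudocount of 0.25 gave 6 and 38. Small changes were thus mostly upward, whereas past 1.5-fold 136 rows fell and 70 rose. In these bulk libraries a lower level in each cell cannot be told apart from fewer cells that express a gene.

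The balance of directions turned with the scaling, and also on the deposited scale when hairpin 1 replicate 2 or 3 was left out. With median-ratio size factors on top of the CPM, 818 rows were called higher and 1115 lower, so that 42.3% of the called rows were higher, against 58.1% on the deposited scale. Counts scaled to the reads in the rows gave 680 higher and 1244 lower, edgeR 808 and 1121, and DESeq2 827 and 942. Each of these scalings kept more rows lowered than raised past 1.5-fold, with 49 raised and 152 lowered for the median-ratio scaling and 66 and 279 for edgeR. Of the 877 rows that fell, 802 (91.4%) also fell with median-ratio scaling, edgeR and DESeq2, and of the 1214 that rose, 711 (58.6%) also rose with all of them. None of these 3 settings called any of the rows in the opposite direction.

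The number of calls moved with the libraries in the fit. Fitted on the 6 libraries alone, 3743 rows were called, and 3687 were called in the fit without hairpin 2 replicate 2, which had 38 rows over 1 log2 unit away from the other hairpin 2 libraries. The median SD of a row was 0.107 log2 units over the hairpin 2 libraries, which share the estimate of the spread. All 2091 rows called in the fit of 9 libraries were called with the 6 alone. Leaving out non-targeting replicate 1 gave 907 rows and leaving out replicate 2 gave 1003. Leaving out hairpin 1 replicates 1, 2 and 3 in turn gave 1350, 756 and 914. Without replicate 2 the split was 360 higher and 396 lower, and without replicate 3 it was 449 and 465. With all 18 knockdown libraries of both lines sharing the estimate, 515 rows were called.

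**Figure D1:**
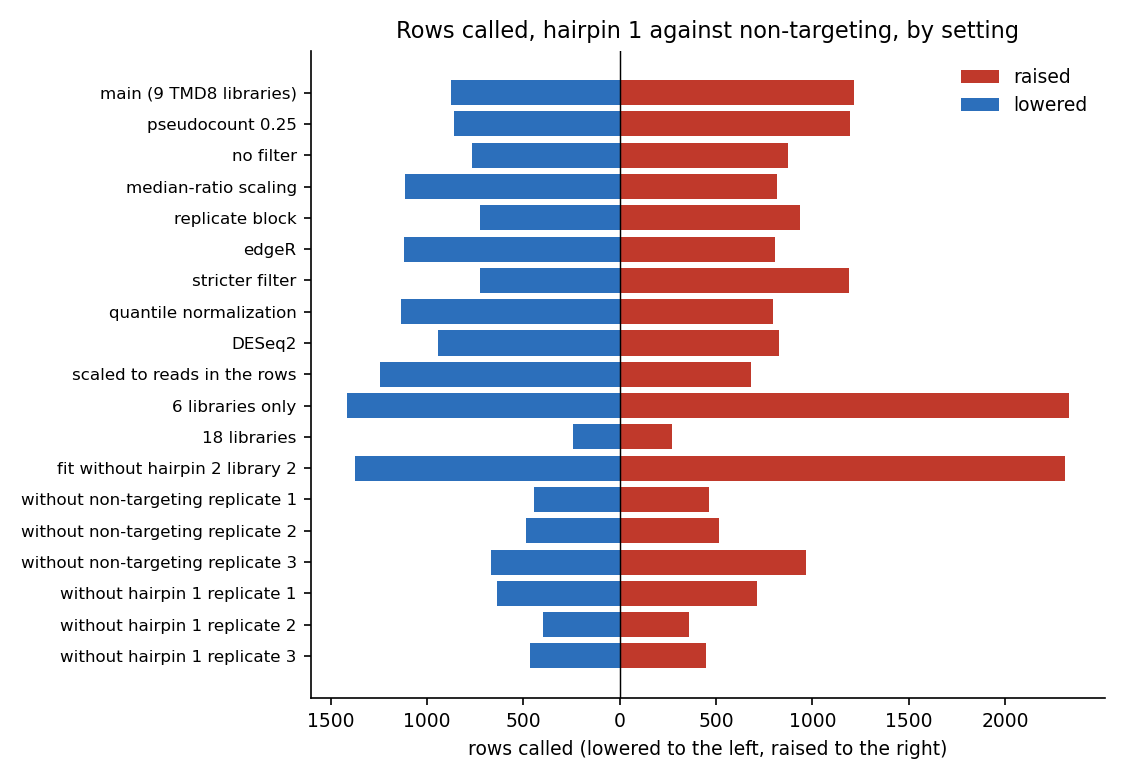
The bars show how many rows were called higher (to the right) and lower (to the left) with hairpin 1 than with the non-targeting hairpin in TMD8, for the reported fit at the top and each other setting below it. The reported fit has 1214 rows raised and 877 lowered, the fit of the 6 libraries alone has 3743 in all, and the scaled settings and count tests have more rows lowered than raised. So do the fits without hairpin 1 replicate 2 or 3.

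Direction went with the level of a row. The tested rows were split into quartiles by their mean over the 6 libraries. In the lowest quartile, with a median of 3.45 CPM, 72 rows rose and 292 of 2824 fell. In the next quartile, with a median of 16.9 CPM, 230 rose and 202 fell. In the third, with a median of 42.3 CPM, 387 rose and 184 fell, and in the highest, with a median of 122 CPM, 525 rose and 199 of 2823 fell. With median-ratio scaling the counts were 45 raised and 323 lowered in the lowest quartile, 154 and 263 in the next, 269 and 232 in the third and 350 and 297 in the highest. The second quartile thus turned to more lowered than raised rows, and the margins of the upper quartiles were smaller. Over all rows of a quartile, called or not, the median log2 fold change was -0.05 in the lowest, 0.03 and 0.05 in the middle quartiles and 0.06 in the highest. Rows near the floor change less on the log2(CPM + 1) scale than in CPM, which affects the lowest quartile most.

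**Figure D2:**
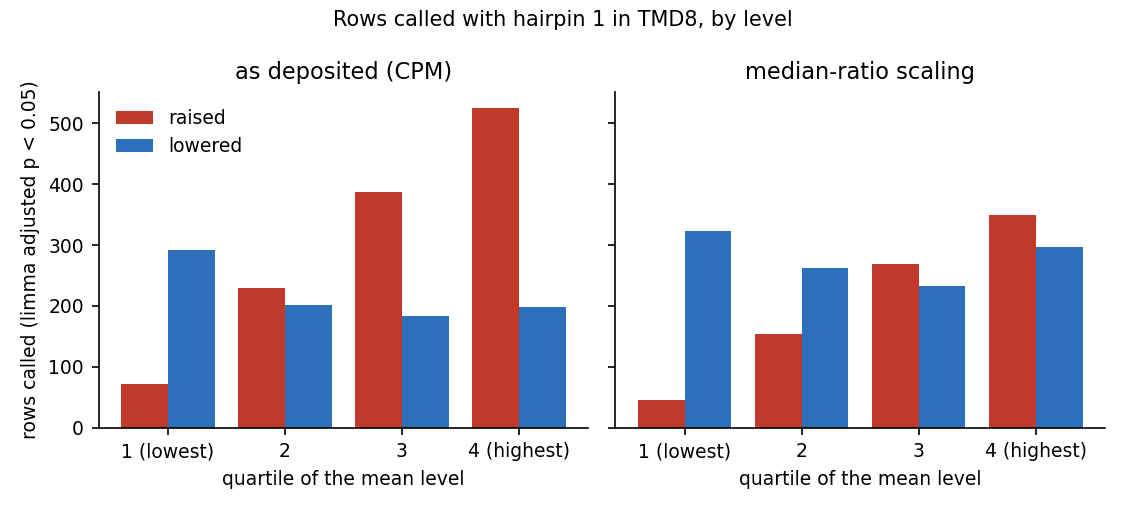
Bars give the number of rows raised and lowered with hairpin 1 in TMD8 in each quartile of the mean level, as deposited on the left and after median-ratio scaling on the right. Lowered rows outnumber raised rows in the lowest quartile in both panels (292 and 72 as deposited, 323 and 45 rescaled), and raised rows outnumber lowered rows in the highest.

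**Figure D3:**
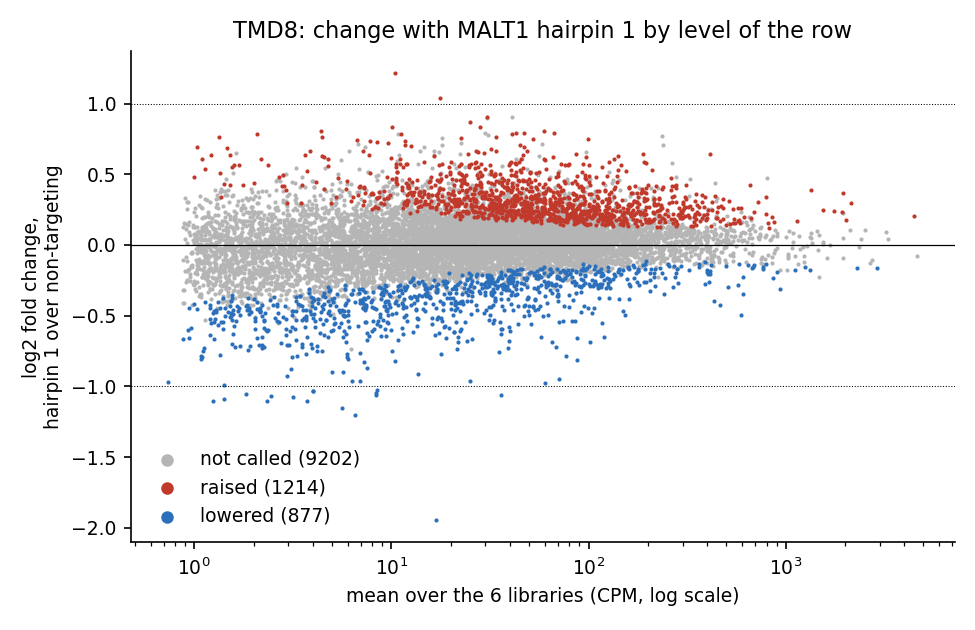
Each point is 1 of the 11293 tested rows, placed by its mean CPM over the 6 libraries (log axis) and its log2 fold change, hairpin 1 over non-targeting, with raised rows red and lowered rows blue. The dotted lines mark a 2-fold change, which 2 raised and 16 lowered rows reach.

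In reads, the changed rows are a modest part of the transcriptome. The 1214 rows that rose held 14.4%, 15.04% and 14.8% of all reads with hairpin 1 and 12.04%, 12.1% and 12.5% with the non-targeting hairpin. The 877 rows that fell held 5.46%, 5.34% and 5.41% with hairpin 1 and 6.56%, 6.45% and 6.43% with the non-targeting hairpin. These shares describe rows chosen for their change and carry no test. The median level was 55.7 CPM for the rows that rose, 20.9 CPM for those that fell and 27.5 CPM over all rows tested.

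Few rows crossed the floor. At 1 CPM or more in all 3 hairpin 1 libraries and under it in all 3 controls were 11 rows, of which 4 were called. The opposite held for 38 rows, of which 27 were called. These rows are separated by definition and pass the filter only through the group where they are high. Their counts of calls carry no test. Over all rows tested, 10.8% were called higher and 7.77% lower. No tested row was at 0 in all 3 libraries of either group.

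Rows named or ranked here were taken from called rows whose hairpin 1 and non-targeting libraries do not overlap. Their lack of overlap was thus required by the choice. Row 756 had the lowest fold change on the log2(CPM + 1) scale. It held 5.998, 6.68 and 6.44 CPM with hairpin 1 and 25.7, 27.6 and 29.0 CPM with the non-targeting hairpin. The groups lie far apart, and the mean with the non-targeting hairpin was 4.30 times that with hairpin 1. In plain CPM the sixth row in this order, at a mean of 0.431 CPM with hairpin 1 and 2.06 CPM with the non-targeting hairpin, had a larger ratio of 4.79. The log2 fold change was -1.95 (SE 0.08; limma adjusted p = 2.22e-07). With hairpin 2 the row held 11.7, 11.7 and 13.3 CPM, which lies between both other groups. Set directly against each other, the hairpins differed by -0.84 log2 units (SE 0.08, adjusted p = 5.47e-05 in limma).

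Row 5018 was next among the lowered rows on the log2(CPM + 1) scale, which places weak rows lower in this order than edgeR does, with 4.47, 2.95 and 3.29 CPM with hairpin 1 and 9.29, 8.75 and 10.3 CPM with the non-targeting hairpin. Its log2 fold change was -1.20 (SE 0.12; limma adjusted p = 0.000144), and the groups did not overlap. With hairpin 2 it held 2.53, 2.35 and 2.54 CPM, and hairpin 1 stood above hairpin 2 by 0.38 log2 units (SE 0.12, adjusted p = 0.0487 in limma).

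The third most lowered row moved in opposite directions with the hairpins. It held 3.35, 2.73 and 3.20 CPM with hairpin 1, 28.8, 24.8 and 21.8 CPM with hairpin 2, and 8.40, 7.52 and 8.31 CPM with the non-targeting hairpin. No libraries of the 3 groups overlapped. Its log2 fold change was -1.15 with hairpin 1 (SE 0.11; limma adjusted p = 8.63e-05) and 1.52 with hairpin 2 (SE 0.11) against the same controls. The difference between the hairpins, -2.67, was the lowest of all rows.

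Other lowered rows differed in what hairpin 2 did. The fifth most lowered row held 1.53, 2.27 and 2.24 CPM with hairpin 1, against 5.02, 4.85 and 6.01 CPM with hairpin 2 and 5.05, 5.35 and 5.94 CPM with the non-targeting hairpin, so hairpin 2 and control libraries overlapped. The eighth held 1.57, 1.86 and 1.60 CPM with hairpin 1, 4.43, 5.85 and 4.32 CPM with hairpin 2, and 4.24, 5.21 and 4.52 CPM with the non-targeting hairpin, which is the same pattern. Their differences between the hairpins were -1.07 and -1.12 (limma adjusted p = 0.0002 and 0.000112). The tenth held 23.6, 20.8 and 24.9 CPM with hairpin 1, 20.7, 20.8 and 18.6 CPM with hairpin 2, and 51.1, 47.8 and 48.9 CPM with the non-targeting hairpin. Here both MALT1 hairpins were below every control, and they were not shown to differ (log2 difference 0.19, SE 0.08; limma adjusted p = 0.1). The 16 rows lowered at least 2-fold were mostly weak, 11 of them under 10 CPM in the control mean. In all 16 the groups did not overlap, as in 18.1% of all rows tested in this direction and 27.5% in the other, and edgeR and DESeq2 called each of them. Over all 11293 rows edgeR called 1929 and DESeq2 1769, and the 16 were already chosen as called on the same reads.

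Row 735 rose most, with 16.7, 15.4 and 12.8 CPM with hairpin 1 and 6.97, 5.26 and 5.42 CPM with the non-targeting hairpin. The groups did not overlap, and the mean with hairpin 1 was 2.54 times that of the controls (log2 fold change 1.22, SE 0.16; limma adjusted p = 0.000713). Hairpin 2 libraries held 10.8, 6.67 and 9.57 CPM, and hairpin 1 was higher by 0.69 log2 units (SE 0.16, adjusted p = 0.0116 in limma).

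Row 11477 held 21.2, 25.2 and 26.3 CPM with hairpin 1 and 10.4, 11.7 and 11.6 CPM with the non-targeting hairpin, again without overlap (log2 fold change 1.04, SE 0.16; limma adjusted p = 0.00146). Hairpin 2 libraries held 27.3, 15.5 and 21.0 CPM, a range that includes all the hairpin 1 values. The hairpins differed by 0.21 on the log2 scale (SE 0.16; limma adjusted p = 0.374), which was not called.

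The next 8 raised rows had log2 fold changes of 0.79 to 0.90 and mean levels of 5.90 to 85.0 CPM with hairpin 1 and 2.93 to 48.5 CPM with the non-targeting hairpin. The third most raised row held 36.4, 40.7 and 43.3 CPM with hairpin 1 and 18.9, 20.8 and 23.3 CPM with the non-targeting hairpin. All 10 of the most raised rows were called by edgeR and 9 by DESeq2, the exception being the tenth (DESeq2 adjusted p = 0.0501). Over all 11293 rows edgeR called 1929 and DESeq2 1769. The 10 rows were chosen as called on the same reads, so these counts are a description. In 9 of these 10 rows, hairpin 2 replicate 2 was the lowest of the hairpin 2 libraries. The exception was the eighth, which held 5.29, 5.36 and 7.03 CPM with hairpin 1. There hairpin 2 libraries held 4.18, 2.78 and 2.14 CPM and the controls 2.86, 2.99 and 2.93 CPM. Among the 10 most lowered rows, hairpin 2 replicate 2 was the lowest in 5, and its share over all rows was not counted.

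**Figure D4:**
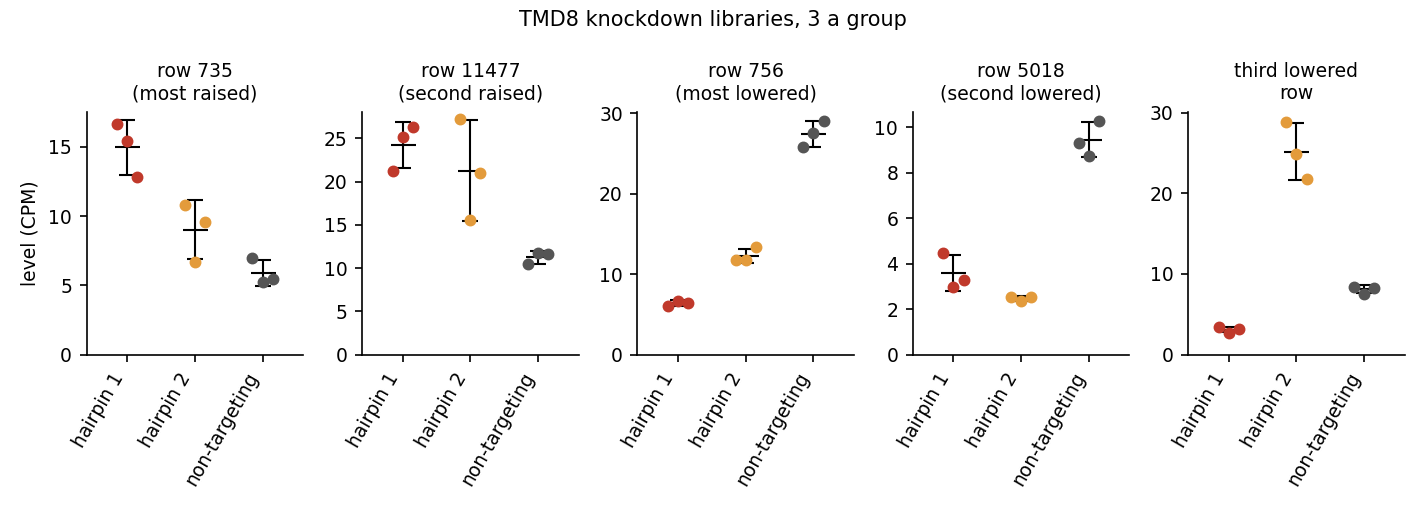
Points are single TMD8 libraries (CPM, linear axis from 0) for the 2 most raised and 3 most lowered rows with hairpin 1, hairpin 2 and the non-targeting hairpin, with the group mean and SD as bars (n = 3 each). Hairpin 1 and non-targeting libraries do not overlap in any panel, which the choice of rows required. In the last panel hairpin 2 lies above the controls while hairpin 1 lies below them.

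How far the hairpins against the same gene differ was tested by setting them directly against each other. The controls enter this fit through the shared estimate of the spread and not through the difference. Of the 11293 rows 2001 differed (17.7%), and 1413 did in a fit of the 6 hairpin 1 and hairpin 2 libraries alone. Hairpin 1 was higher than hairpin 2 in 945 rows (8.37%) and lower in 1056 (9.35%), and 7 and 25 of these differed at least 2-fold. Rows higher with hairpin 1 had a median difference of 0.36 on the log2 scale, and rows lower with it -0.30. In the rows that were higher the medians against the controls were 0.14 with hairpin 1 and -0.20 with hairpin 2, and in the rows that were lower -0.09 with hairpin 1 and 0.23 with hairpin 2. The count was 3032 without hairpin 2 replicate 1, 1232 without hairpin 2 replicate 3, 1116, 1070 or 997 without hairpin 1 replicate 1, 2 or 3, and 645 with all 18 knockdown libraries.

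Hairpin 2 set against the same controls called 1550 rows higher (13.7%) and 1154 lower (10.2%), 23.9% in all. Both comparisons share the 3 non-targeting libraries, which alone draws their values together, and the rows were chosen for their change with hairpin 1. Rows raised with hairpin 1 had a median log2 fold change of 0.29 with hairpin 1 and 0.17 with hairpin 2, and lowered rows had -0.38 with hairpin 1 and -0.25 with hairpin 2. Over all rows tested the medians were 0.03 with each hairpin. The 136 rows lowered at least 1.5-fold had medians of -0.70 with hairpin 1 and -0.56 with hairpin 2, and the 70 raised at least 1.5-fold had 0.66 with hairpin 1 and 0.21 with hairpin 2.

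The same hairpin in OCI-Ly3 shares no library with TMD8. A fit of the OCI-Ly3 libraries called 341 of the 11293 rows (3.02%), 159 higher (1.41%) and 182 lower (1.61%) with hairpin 1, and without OCI-Ly3 non-targeting replicate 1 it called 542 higher and 630 lower (4.80% and 5.58%, 10.4% in all). In that control library 986 rows stood over 1 log2 unit away from the mean of the other OCI-Ly3 controls, against 135 and 116 rows in those. The count was 29 to 99 without any one of the other 5 libraries: 82 or 99 without control 2 or 3, and 29, 40 or 34 without OCI-Ly3 hairpin 1 replicate 1, 2 or 3. Rows raised in TMD8 had a median log2 fold change of 0.08 in OCI-Ly3, with 61.4% of them above 0, and rows lowered in TMD8 had 0.01, with 46.9% below 0. Over all rows the median in OCI-Ly3 was 0.01, with 51.9% above 0 and 47.7% below. Without the library that stands apart, the medians were 0.03 for the raised rows and -0.01 for the lowered rows, against -0.01 over all. The 70 rows raised at least 1.5-fold in TMD8 had a larger median in OCI-Ly3, 0.32, or 0.16 without that library, whereas the 136 lowered rows had 0.02. Over the 11293 rows, which share libraries and depth and are not replicates, Pearson's correlation between the fold changes in TMD8 and in OCI-Ly3 was 0.115 (0.12 without that library).

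The rows called in OCI-Ly3 were also followed in TMD8. Of the 159 rows raised there, 38 (23.9%) rose and 11 (6.92%) fell in TMD8, where 10.8% and 7.77% of all rows did. Of the 182 lowered there, 42 (23.1%) fell and 10 (5.49%) rose. The 38 and the 42 are 3.13% of the rows raised and 4.79% of the rows lowered in TMD8. Without OCI-Ly3 non-targeting replicate 1, 111 of 542 (20.5%) rose in TMD8 and 63 (11.6%) fell, and 116 of 630 (18.4%) fell and 39 (6.19%) rose.

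Whether hairpin 1 acts differently in the lines was tested by the difference of its effects in a fit of all 18 knockdown libraries. It differed in 906 of 11293 rows (8.02%), 475 higher (4.21%) and 431 lower (3.82%) in TMD8 than in OCI-Ly3. The higher ones had medians of 0.16 in TMD8 and -0.32 in OCI-Ly3, and the lower ones -0.26 in TMD8 and 0.43 in OCI-Ly3. Of the 906, 857 reached 1 CPM in at least 3 of the 6 OCI-Ly3 libraries. So did 10644 of all 11293 rows tested, which is nearly the same share. A different response and a different depth of knockdown in the lines cannot be told apart, because MALT1's own row is unknown. The count was 1677 without OCI-Ly3 non-targeting replicate 1 and 1411 without replicate 2, 569, 502 or 361 without OCI-Ly3 hairpin 1 replicate 1, 2 or 3, 446, 462 or 429 without TMD8 non-targeting replicate 1, 2 or 3, and 575, 382 or 412 without TMD8 hairpin 1 replicate 1, 2 or 3. Median-ratio scaling gave 281 higher and 521 lower.

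All of the 10 most lowered rows in TMD8 differed between the lines, and 3 of the 10 most raised did. These rows were chosen for their change in TMD8, which is part of the difference, so the counts are a description. In OCI-Ly3, 5 of the lowered and 3 of the raised rows had means under 2 CPM in both groups, where log2(CPM + 1) understates any change. For row 756 the TMD8 effect was lower by 1.82 log2 units (difference -1.82, SE 0.33; limma adjusted p = 0.00521), and OCI-Ly3 libraries held 28.1, 30.1 and 32.0 CPM with hairpin 1 and 17.5, 44.1 and 46.1 CPM with the non-targeting hairpin. The first of these controls is the one that stands apart, and without it the difference was -1.38 (limma adjusted p = 6.54e-07). Once that control was left out, row 756 was also called lower within OCI-Ly3, at -0.57 (adjusted p = 0.00405, limma). This fall was smaller than the one in TMD8 (-1.95). With that control kept, the OCI-Ly3 value was -0.13 and was not called. Rows 735, 11477 and 5018 were weak in OCI-Ly3, with means of 0.548, 0.591 and 1.23 CPM with hairpin 1 and 1.11, 0.575 and 0.736 CPM with the non-targeting hairpin. At these levels a row has few reads in OCI-Ly3. The fifth most lowered row was strong in OCI-Ly3, at a mean of 273 CPM with the non-targeting hairpin, and had a log2 difference between the lines of -2.13 (limma adjusted p = 0.00024).

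Compound 3 in TMD8 was the remaining perturbation of MALT1 in the same line, in libraries of another experiment. A fit of its 12 TMD8 libraries called 0 rows at 8 h and 0 at 24 h (limma; edgeR also 0 at each), with 109 and 69 rows at an unadjusted p below 0.05 in limma and 92 and 93 in edgeR. Each of these unadjusted counts is under 0.05 of the 11293 rows, the share expected if no row changed. These fits did not pair compound 3 libraries with DMSO libraries, though same-numbered libraries deviated together at 8 h. Their 0 calls therefore do not show that no row changed. The libraries numbered 1 at 8 h stood apart in 530 rows with compound 3 and 517 with DMSO. At 24 h the rows raised by hairpin 1 had a median log2 fold change of 0.05 with compound 3 over DMSO, with 73.3% of them above 0, against 0.003 and 51.2% over all rows tested. In the highest quartile of levels, which holds 525 of them, 78.7% were above 0, against 65.7% of all rows of that quartile, and in the quartile below it 69.8% against 50.5%. The rows lowered by hairpin 1 had a median of -0.02 and 43.6% above 0. At 8 h the raised rows had a median of -0.03 and the lowered rows -0.03, against -0.01 over all. Over the 11293 rows Pearson's correlation of the fold changes with hairpin 1 and with compound 3 was 0.0512 at 8 h and 0.172 at 24 h. These medians are smaller than those with the hairpin, and no row behind them was called.

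The named rows were not called with compound 3. Row 756 held 0.814, 1.29 and 1.55 CPM with compound 3 at 24 h and 1.02, 1.70 and 1.53 CPM with DMSO. These groups overlap, both below the 25.7 to 29.0 CPM of the infected controls. At 8 h row 756 held 14.9, 1.96 and 4.70 CPM with compound 3 and 14.8, 2.06 and 4.78 CPM with DMSO. Row 11477 held 16.2, 12.1 and 18.3 CPM with compound 3 at 24 h and 17.5, 14.5 and 16.6 CPM with DMSO, which overlap as well. At 8 h row 11477 held 79.5, 17.8 and 14.2 CPM with compound 3 and 68.3, 18.7 and 13.0 CPM with DMSO. At 8 h the libraries numbered 1 were thus highest for each row in both groups.

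**Figure D5:**
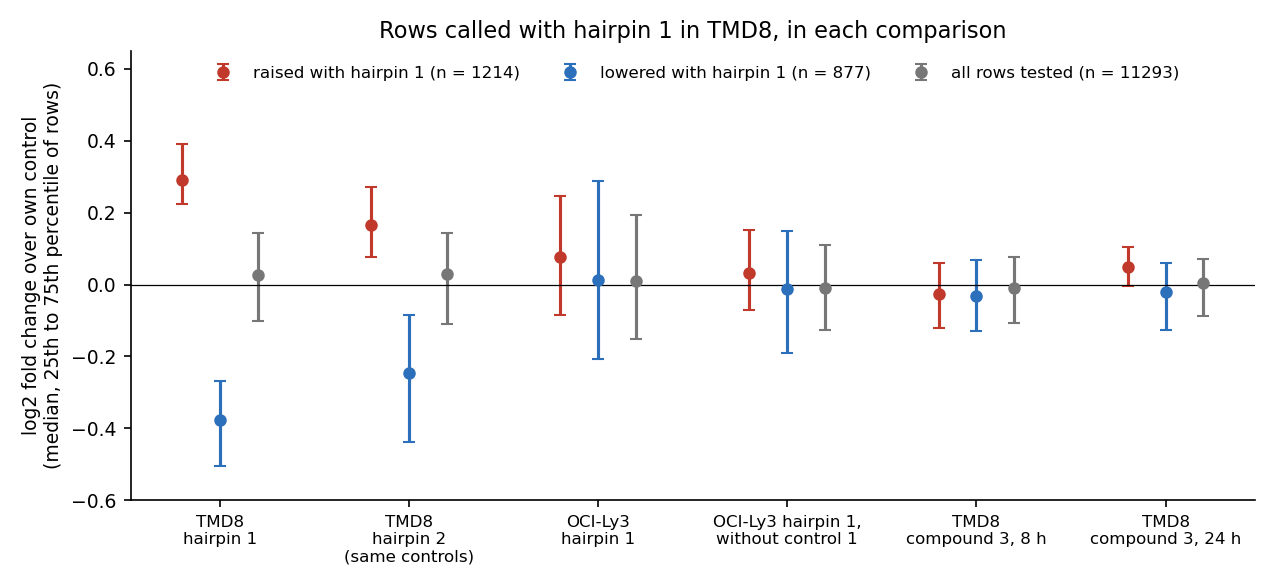
Points give the median log2 fold change, and bars the 25th to 75th percentile over rows, of the 1214 rows raised and 877 lowered with hairpin 1 in TMD8 and of all 11293 rows tested, in each comparison against its own control. Medians in TMD8 with hairpin 1 are 0.29 for raised and -0.38 for lowered rows and fix the choice of rows, hairpin 2 shares its controls, and those in OCI-Ly3 and with compound 3 lie within 0.1 of 0.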

How the data were processed

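Libraries came from a stranded mRNA kit, per the labels' protocols, and STAR (version not given) was used with the build hg19, per the submitters' processing notes. No source used here gives the read counter or its strand setting, so overlapping, antisense and near-identical genes could not be set apart. The authors deposited CPM, with 1 library a file. In each file 100% of the values were whole multiples of what 1 read is worth, within a relative 1e-06, which recovers the reads. Groups and replicate numbers came from the titles.

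Rows were tested with limma 3.58.1 (R 4.3.3) on log2(CPM + 1). The 9 TMD8 knockdown libraries were fitted with 1 mean a group and moderated variances that follow the mean (eBayes), and p-values were adjusted by Benjamini-Hochberg over 11293 rows. The CPM + 1 scale understates changes of weak rows. OCI-Ly3 (9 libraries) and TMD8 with compound 3 (12) were fitted apart, and the difference between lines in all 18 knockdown libraries. edgeR 4.0.16 (quasi-likelihood, TMM) and DESeq2 1.42.0 on recovered counts were alternatives and called 1929 and 1769 rows. The fits were tested on simulated data.

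Named rows are the 2 most raised and 2 most lowered of the called rows whose groups do not overlap, and other rows are given by rank. Members, rows followed elsewhere and fold limits were chosen with earlier results of these data known. Rows given by rank with values for each library were singled out after their values were seen. In the compound experiment at 8 h, libraries with the same number deviated together (correlations 0.926, 0.761 and 0.765), so the numbers pair there. At 24 h and in the knockdown they did not in every pair. The 12 compound libraries of OCI-Ly3 were not used.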

Additional observations from a re-analysis of the deposited data

Results flagged for a closer look

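The effect of hairpin 1 differed between TMD8 and OCI-Ly3 in 906 rows by the test of the difference itself. Among the named rows, the difference TMD8 minus OCI-Ly3 on the log2 scale was 1.57 for row 735, 1.02 for row 11477, -1.82 for row 756 and -1.58 for row 5018. The limma adjusted p was 0.0116 for row 735, 0.0234 for row 11477, 0.00521 for row 756 and 0.0013 for row 5018. All 3 hairpin 1 libraries of TMD8 lay on one side of their controls in each, which the choice of these rows required. The rows were chosen for their change in TMD8. Rows 735, 11477 and 5018 had means of 0.548, 0.591 and 1.23 CPM with hairpin 1 and 1.11, 0.575 and 0.736 CPM with the non-targeting hairpin in OCI-Ly3, where log2(CPM + 1) understates changes. Their log2 fold changes there were -0.35, 0.02 and 0.37, none of them called, against 1.22, 1.04 and -1.20 in TMD8. Most of each difference is thus the change in TMD8, and for row 11477 nearly all of it. Without OCI-Ly3 non-targeting replicate 1 the differences were 1.21 for row 735, 1.003 for row 11477, -1.38 for row 756 and -1.44 for row 5018. Row 756 was then called lower in OCI-Ly3 too, by less than in TMD8 (-0.57 against -1.95).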

How the results depend on the processing

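Rows 735, 11477, 756 and 5018 kept their direction and their call in all 18 settings each (adjusted p at most 0.0119, limma, edgeR or DESeq2). They were chosen as strongly changed called rows without overlap, so leaving out a library could not turn their direction. The other settings use the same reads, so this stability was largely fixed by the choice. The 2091 rows called with hairpin 1 became 3743 with the 6 libraries alone, 3687 without hairpin 2 replicate 2 (chosen after seeing the data), 515 with 18 libraries and 756 to 1633 without single replicates. The 18 rows past 2-fold became 44 with a pseudocount of 0.25, 68 with edgeR, 67 with DESeq2, 11 with the stricter minimum of 5 CPM, and 15 to 19 without single replicates. The comparison of the hairpins (2001 rows) gave 645 with 18 libraries and 997 to 3032 without single replicates. The difference between lines (906) ranged over 361 to 1677 and OCI-Ly3 alone (341) over 29 to 1172 without single replicates. The median of the lowered rows in OCI-Ly3 (0.0119) changed sign to -0.0111 without non-targeting replicate 1, an alternative added after seeing the data, as was scaling to the reads in the rows. The cause of these moves was not tested. The compound counts were 0 in all 11 settings at each time.

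Replicate numbers of hairpin 1 and non-targeting libraries in TMD8 had correlations of 0.0738, -0.0353 and 0.0277 between their deviations, so they share only a number. With the replicate block, 1659 rows were called (934 higher, 725 lower), 1588 between hairpins, 757 between lines, 93 in OCI-Ly3, and 0 with compound 3 at 8 h and 24 h (584 and 616 at an unadjusted p below 0.05 in limma). These unadjusted counts lie slightly above 0.05 of the 11293 rows, the share expected if no row changed. At 24 h same-numbered libraries had correlations of -0.196, -0.168 and 0.806, so there only the libraries numbered 3 deviated together. Compound 3 library 1 deviated with DMSO library 2 (0.676), and compound 3 library 2 with DMSO library 1 (0.643). The block followed the numbers, and no fit paired the 24 h libraries by these correlations. The 0 rows called at 24 h hold only for the settings run. Weak rows, where 1 CPM is 21.9 to 24.2 reads, limit what can be seen near the floor.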
